A study of Mus musculus with 3 samples.

Results

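This report describes 9 genes of the B lymphocyte lineage, read in T-cell precursors through peaks of histone H3 acetylated at lysine 27 (H3K27ac). This mark is found at promoters and enhancers in use. The genes, taken from a list of names, were Igll1, Vpreb1, Cd79a, Cd79b, Cd22, Pax5, Ebf1, Ighm and Igkc. They are 9 of 49943 annotated genes on the assembled chromosomes. Of them, 7 code for protein, out of 21887 such genes with a symbol of their own. Ighm and Igkc are annotated as receptor constant regions, of which there are 20. The cells came from the thymus of wild-type C57BL/6J mice 5 to 7 weeks old and were sorted without CD4 or CD8, with CD25, and with CD44 absent or present. The labels give 2 H3K27ac samples, replicates 1 and 2, and 1 input sample that was not analysed here. No treatment, transgene or deletion is given for these samples, and the labels do not say whether the replicates came from separate animals.

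B and T lymphocytes arise from shared progenitors. A B-cell precursor first joins the segments of the immunoglobulin heavy chain and shows it on its surface with a surrogate light chain, made of the products of Igll1 (lambda 5) and Vpreb1. The signal of this pre-B-cell receptor runs through CD79A and CD79B, and EBF1 and PAX5 are the factors that specify and hold the B-cell programme. In the thymus, the programme that EBF1 and PAX5 specify is known as one that T-cell precursors do not follow. The T-cell counterparts of the parts named above are pre-T-alpha, the CD3 chains and factors such as TCF-1, GATA3 and BCL11B.

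Replicate 1 held 12377 peaks and replicate 2 held 9477, with median fold enrichments of 2.17 and 2.31. The fold is the authors' ratio of the peak's reads to the background of the peak caller. The q-value is the p-value as the caller adjusted it for multiple testing. Of the peaks, 27.1% and 41.0% had q of at most 0.05, which is a −log10 q of 1.3. Read counts are not part of these lists, and the depth is unknown. Defining genes of the sorted stage carried peaks: Kit and Il2ra, which encodes CD25, had a peak in the gene body in both replicates. So did 8 of 11 T-lineage markers, against 19.9% of protein-coding genes. Ptcra, Thy1 and Cd2 did not, and Cd2 had no peak within 25 kb. Cd44, which the gate allows to be absent, had one in replicate 1 alone. Cd4, Cd8a and Cd8b1 had no peak within 25 kb in either replicate, whereas 61.6% of protein-coding genes had one in either. Of the 3 natural killer cell markers, Nkg7 had a gene-end peak in each replicate, and Ncr1 and Klrb1c had none. The Nkg7 peaks lay 412 bp and 18 bp outside the gene and did not overlap. The 4 myeloid, 3 plasmacytoid dendritic and 3 erythroid markers had 0 with a gene-end peak in both, against 16.8% of protein-coding genes. At Cd68 and Ly6d only replicate 1 had such a peak. Within 25 kb these markers were not empty. There, 2 of 3 natural killer markers (Klrb1c and Nkg7), 1 of 4 myeloid (Cd68) and 1 of 3 erythroid (Hba-a1) had a peak in both replicates. The share was 0 of 3 for plasmacytoid dendritic markers, 10 of 11 for T-lineage markers and 38.1% for protein-coding genes. These marker lists are short and were not tested, so they do not measure the purity of the cells.

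No B-lineage gene of the 9 had a peak at its ends or in its body. Within 1 kb of either annotated gene end (a gene-end peak), 0 of 9 had a peak in replicate 1, against 25.1% of protein-coding genes, and 0 of 9 in replicate 2, against 22.2%. The background was 16.8% of protein-coding genes with a gene-end peak in both replicates, and 30.5% with one in either. The nearest peaks lay just outside this window: within 2.5 kb of an end, Igll1, Vpreb1 and Ighm had a peak in both replicates, which is 3 of 9 against 18.9% of protein-coding genes. In the gene body, 0 of 9 had a peak in either replicate, against 19.9% of protein-coding genes in both replicates and 38.9% in either. Of the 9, Igkc, Vpreb1, Cd79b, Igll1, Ighm and Cd79a span only 320 to 4362 bp. Longer genes can hold more peaks, and this background was not matched for length. Among all 20 receptor constant regions, to which Ighm and Igkc belong, 25% had a gene-end peak in both. The list was chosen with earlier results known and is short, so it is described by counts and was not tested. In a bulk library, acetylation in few cells and weak acetylation in many cannot be told apart, and the lists hold only what the caller kept.

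Within 25 kb the 9 genes were no longer empty. Igll1, Vpreb1, Cd79a and Ighm had a peak in both replicates, which is 4 of 9 (44.4%) against 38.1% of protein-coding genes. In replicate 1 it was 6 of 9 against 53.1%, in replicate 2 it was 4 of 9 against 46.5%, and in either it was 6 of 9 against 61.6%. These shares are near the background. Cd79b and Cd22 had a peak in replicate 1 alone, and Pax5, Ebf1 and Igkc had none in either. With q of at most 0.05 in each replicate, 0 of 9 had a peak in both, against 8.36% of protein-coding genes. Most of the peaks lay closer to a gene outside the list. Of 13 separate peaks of both replicates, 9 had their nearest annotated gene end at such a gene, and 4 had it at Igll1 or Ighm. Counted for each gene with each peak in its 25 kb, the gene itself had the nearest end in 4 of 20 cases (20%), and over all protein-coding genes in 40.6% of 34935 cases. Without peaks that lie within 1 kb of another gene's end, a setting chosen after seeing the data, Igll1, Vpreb1 and Ighm were left. That is 3 of 9 against 17.7% of protein-coding genes, and the surrogate light chain genes share their peaks. Nearness does not show on which gene a peak acts.

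**Figure D1:**
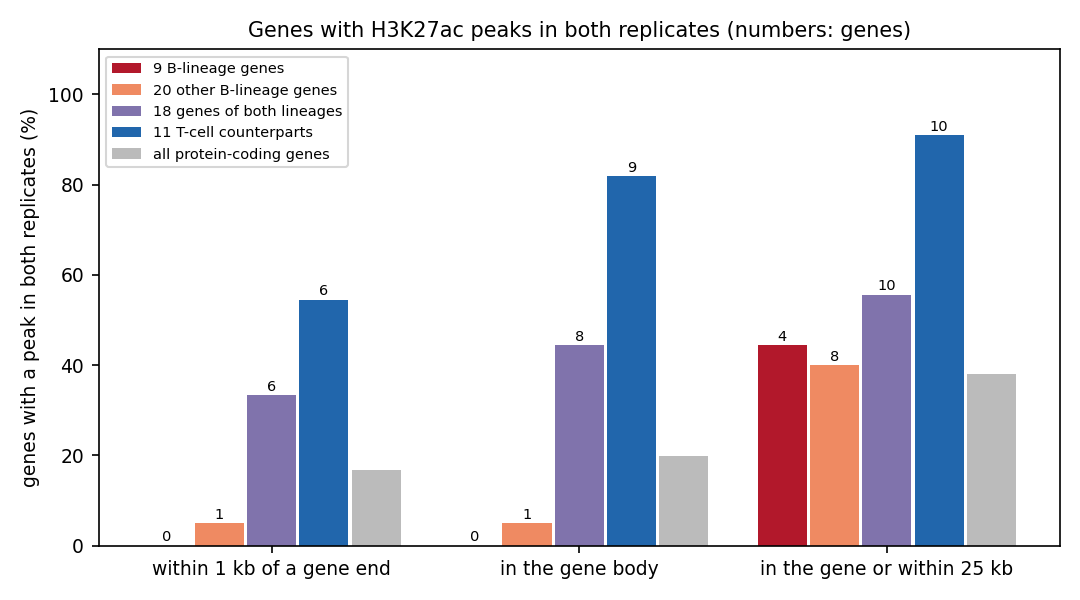
Bars give the percent of genes with an H3K27ac peak in both replicates (vertical axis) within 1 kb of a gene end, in the gene body, or in the gene or within 25 kb. Numbers on the bars are genes. The 9 B-lineage genes stand at 0, 0 and 4, and all protein-coding genes at 16.8%, 19.9% and 38.1%.

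Igll1 and Vpreb1, the surrogate light chain genes, lie 4416 bp apart on chromosome 16 and are both read on the minus strand. Igll1 spans 16860671 to 16863985 and Vpreb1 spans 16868401 to 16869255 (mm10, as are all coordinates here). Beyond the start of Vpreb1, at 1467 bp, begins Top3b, a topoisomerase gene used in many tissues, which is read on the plus strand, so that Vpreb1 and Top3b are read away from each other. The promoters of the 3 genes are shown because the peaks nearest to Vpreb1 lay at the start of Top3b. Each runs from 250 bp before to 50 bp after the transcription start, 5′ to 3′ in the direction of its gene (RefSeq, GRCm38.p6). Capitals mark CG dinucleotides, which are dense at many broadly used promoters and sparse at many tissue-specific ones.
Igll1, chr16:16863936-16864235, minus strand: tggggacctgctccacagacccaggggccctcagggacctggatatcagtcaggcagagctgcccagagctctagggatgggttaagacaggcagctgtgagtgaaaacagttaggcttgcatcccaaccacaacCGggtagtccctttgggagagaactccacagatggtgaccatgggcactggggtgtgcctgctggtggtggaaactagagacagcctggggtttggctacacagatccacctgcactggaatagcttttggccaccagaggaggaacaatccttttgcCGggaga
Vpreb1, chr16:16869206-16869505, minus strand: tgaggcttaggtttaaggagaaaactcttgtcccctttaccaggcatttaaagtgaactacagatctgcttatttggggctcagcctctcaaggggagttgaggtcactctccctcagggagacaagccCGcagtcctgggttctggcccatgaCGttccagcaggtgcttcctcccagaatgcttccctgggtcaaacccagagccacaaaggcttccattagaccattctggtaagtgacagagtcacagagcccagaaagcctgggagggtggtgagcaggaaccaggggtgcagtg
Top3b, chr16:16870486-16870785, plus strand: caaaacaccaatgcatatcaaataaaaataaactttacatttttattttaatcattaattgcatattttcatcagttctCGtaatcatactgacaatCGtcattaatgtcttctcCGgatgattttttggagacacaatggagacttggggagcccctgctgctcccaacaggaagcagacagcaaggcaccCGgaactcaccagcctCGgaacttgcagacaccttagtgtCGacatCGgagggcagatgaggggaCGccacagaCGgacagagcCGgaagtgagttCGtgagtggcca
The Igll1 and Vpreb1 promoters hold 2 CG dinucleotides each and that of Top3b holds 11, against a median of 13 over the 21263 promoters of protein-coding genes in the same table.

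A peak of each replicate lay between the 2 surrogate light chain genes, upstream of Igll1. It ran from 16865757 to 16866582 in replicate 1 (826 bp) and from 16865643 to 16866340 in replicate 2 (698 bp). The replicates shared 584 bp, which is 83.7% of the shorter peak and 13.2% of the 4415 bp between the genes. The peak began 1772 bp from the transcription start of Igll1 in replicate 1 and 1658 bp in replicate 2. It lay 1819 bp and 2061 bp from the 3′ end of Vpreb1. The nearest end of a gene outside the list was that of Top3b, 4140 bp and 4382 bp away, with the whole of Vpreb1 between. Its folds were 1.99 and 2.03, so the replicates were close in height. These folds exceeded only 33.3% and 28% of the peaks in their own lists, and the −log10 q values were 0.710 and 0.777.

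The peak nearest to Vpreb1 lay at the start of Top3b. In replicate 2 it ran from 16870606 to 16871513 and covered the Top3b start, and in replicate 1 from 16870978 to 16871520, 242 bp from that start and inside the gene. Its distance to the Vpreb1 start was 1351 bp in replicate 2 and 1723 bp in replicate 1. The folds were 2.57 and 1.57, and the −log10 q values 1.26 and 0.443. In the printed sequences, the Vpreb1 window had no peak over it in either replicate, and the Top3b window had one in replicate 2. Top3b is therefore the other gene that may own this peak.

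Another pair of peaks lay on the far side of Igll1, and the replicates barely met there. Replicate 1 had 278 bp (16856495 to 16856772) with a fold of 1.80, and replicate 2 had 276 bp (16856285 to 16856560) with a fold of 3.01. They shared 66 bp, or 23.9% of the shorter peak. The replicate 2 peak had a −log10 q of 1.42, past q of 0.05, and the replicate 1 peak had 0.534. They lay 3899 bp and 4111 bp from the 3′ end of Igll1, and 2245 bp and 2035 bp from the pseudogene Gm5768, the nearest other gene. Replicate 1 alone had a further peak in the body of Top3b, 18999 bp from Vpreb1 (16888254 to 16889357), with a fold of 2.39. Within 25 kb both surrogate light chain genes thus had the same 1186 bp under peaks of both replicates. This exceeded the value of 93.1% of protein-coding genes, of which the median is 0 bp, and the genes are not independent in this. Of the 1186 bp, 536 bp lay at the start of Top3b. Without peaks within 1 kb of another gene's end, 650 bp were left. With q of at most 0.05 it was 0 bp, and both settings were chosen after seeing the data. Cd79a, with 1223 bp at Rps19, exceeded 93.5% of protein-coding genes.

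**Figure D2:**
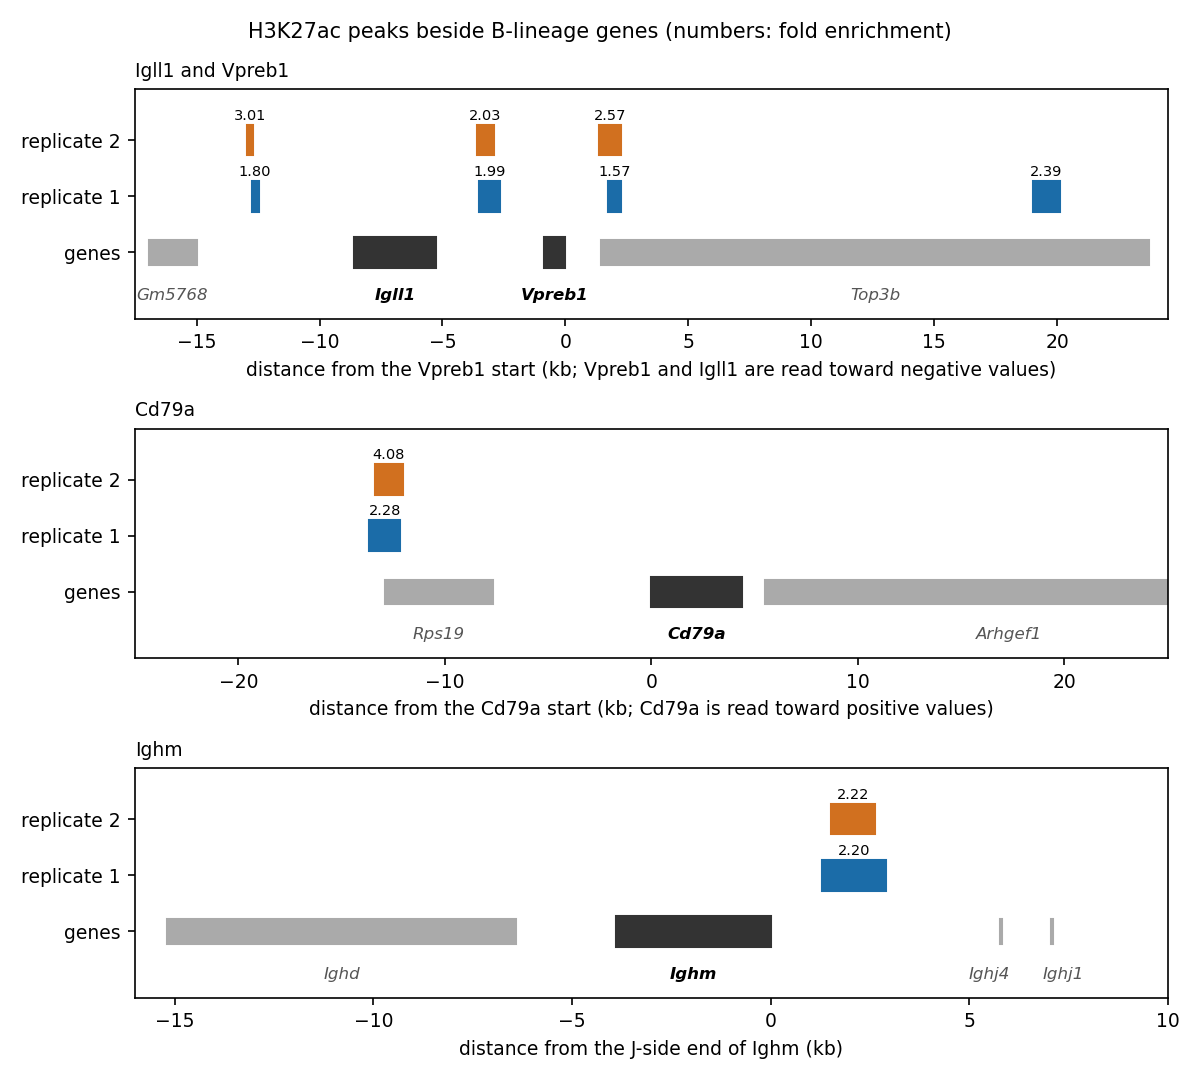
Maps of the 3 stretches where peaks of both replicates (replicate 1 blue, replicate 2 orange, fold enrichment above each) lay within 25 kb of a B-lineage gene (black; other genes grey), against distance in kb. Peaks lie at the starts of Top3b and Rps19, between Igll1 and Vpreb1 (folds 1.99 and 2.03) and between Ighm and the J segments (2.20 and 2.22), and none overlies a black box.

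Cd79a encodes the alpha signalling chain of the B-cell receptor and spans 24897497 to 24901858 on chromosome 7, read on the plus strand. The only peak of each replicate within 25 kb lay 12157 bp (replicate 1) and 12047 bp (replicate 2) upstream, over the start of Rps19, a gene of the small ribosomal subunit. It ran from 24883826 to 24885340 and from 24884118 to 24885450, with 1223 bp in common. The fold was 2.28 in replicate 1 and 4.08 in replicate 2, higher than 59.3% and 94.5% of the peaks in each list. The −log10 q was 0.895 in replicate 1 and 5.28 in replicate 2, so that only the latter passed q of 0.05. The 7685 bp between Rps19 and Cd79a held no peak in either replicate. Nor did the 1127 bp between Cd79a and Arhgef1, a signalling gene of many blood cells, on its other side. Peaks were thus found at the start of the ribosomal neighbour and at neither end of Cd79a. The 2 promoters are printed because one window lay under peaks of both replicates and the other under none. For Rps19 the most upstream of the 3 listed starts is shown, and capitals mark CG dinucleotides as above.
Cd79a, chr7:24897247-24897546, plus strand: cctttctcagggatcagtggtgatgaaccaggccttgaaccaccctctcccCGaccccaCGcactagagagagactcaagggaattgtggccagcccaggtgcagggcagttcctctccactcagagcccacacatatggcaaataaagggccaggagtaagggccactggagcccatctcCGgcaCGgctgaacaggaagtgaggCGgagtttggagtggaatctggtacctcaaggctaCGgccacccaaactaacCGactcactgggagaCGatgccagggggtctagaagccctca
Rps19, chr7:24884342-24884641, plus strand: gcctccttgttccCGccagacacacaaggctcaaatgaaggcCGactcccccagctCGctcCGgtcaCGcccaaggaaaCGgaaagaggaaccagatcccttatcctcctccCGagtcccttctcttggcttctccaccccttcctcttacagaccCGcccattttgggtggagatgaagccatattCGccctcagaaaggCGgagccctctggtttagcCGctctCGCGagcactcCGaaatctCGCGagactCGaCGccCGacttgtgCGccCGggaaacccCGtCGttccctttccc
The Cd79a promoter holds 8 CG dinucleotides and that of Rps19 holds 23. Arhgef1 has 32 and 21 at its 2 listed starts, with no peak over either window and no gene-end peak in either replicate. Whether CG content goes with peaks was not tested.

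Promoter entries were found for 6 of the 9 genes (66.7%) and for 79.9% of protein-coding genes, so a comparison of the list by CG content is void, and the values are given for single genes. Cd22 had 4 CG dinucleotides, Ebf1 had 9 and 17 at its 2 listed starts, and Pax5 had 23. None of these windows lay under a peak. A hexamer bound by E2A and related E proteins, CAGGTG on either strand, was searched in the same 300 bp windows. It was found once each at Igll1, Vpreb1, Cd79a and Cd22 and not at Pax5 or at either start of Ebf1, and 19.7% of promoters of protein-coding genes hold it. Among the T-cell counterparts described below, Cd3d, Cd3e, Cd3g, Cd247, Cd5 and 1 listed start of Tcf7 also hold the hexamer. Ptcra, Bcl11b and Gata3 lack it. In the printed sequences it begins at base 163 of Vpreb1 and base 97 of Cd79a, and on the other strand at base 243 of Igll1. The letters CCCNNGGG, the core of the EBF1 motif (the same read on both strands), were found at Igll1 and Cd22 and in 15.6% of those promoters. With entries for only 6 of the 9 genes, the list is not compared with these shares. A match is a description of the letters and does not show binding.

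Cd79b, the beta signalling chain (chromosome 11, 106311341 to 106314562), had a single peak within 25 kb, in replicate 1. The peak covered 734 bp (106317925 to 106318658), lay 3363 bp from Cd79b and had a fold of 2.38 and a −log10 q of 1.22. It lay inside Scn4a, a sodium channel gene of skeletal muscle, 380 bp from the 3′ end of that gene and 30732 bp from its listed start. In replicate 2 the nearest peak was 38112 bp away, at Smarcd2, a subunit gene of a chromatin remodeller, and also over the start of Tcam1. Tcam1, of which the nearer end lies 22604 bp from Cd79b, had a gene-end peak in both replicates. Within 25 kb, Cd79a thus had peaks of both replicates, at Rps19, and Cd79b a peak of replicate 1 alone. Within 50 kb both genes had a peak in both replicates, and neither had one at its ends or in its body.

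Cd22 encodes an inhibitory coreceptor of B cells (chromosome 7, 30865404 to 30880342). Its only peak within 25 kb was again in replicate 1, 18173 bp away and 278 bp wide (30898515 to 30898792). The fold was 1.84 and the −log10 q 0.684, and the fold exceeded 22.2% of that list. The peak lay 383 bp beyond the 3′ end of Mag, a myelin glycoprotein gene, and 15529 bp from the nearest listed start of Mag. The nearest peak of replicate 2 was 75854 bp from Cd22, at Usf2. The 3 protein-coding neighbours within 25 kb (Ffar1, Ffar3 and Mag) lacked a gene-end peak shared by the replicates.

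The factors Pax5 and Ebf1 are the longest genes of the list, at 185947 bp and 389997 bp, and neither held a peak of either replicate. Among the 1461 protein-coding genes of at least 150 kb, 31.9% had a peak in the body in both replicates and 64.7% in either, a comparison chosen after seeing the data. The nearest peaks to Pax5 (chromosome 4, 44524748 to 44710694) lay 45213 bp away in replicate 1 and 45847 bp in replicate 2. Both covered the start of Zcchc7, a zinc finger gene upstream of Pax5, with folds of 1.98 and 2.70. Around Ebf1 (chromosome 11, 44618100 to 45008096) the nearest peaks lay at 97126 bp and 98566 bp, by Rnf145, with folds of 3.12 and 2.26. In replicate 1, 76.8% of protein-coding genes had a nearer peak than Ebf1, and 71.6% did in replicate 2. No other protein-coding gene lies within 25 kb of Pax5 or Ebf1.

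The constant regions differed from each other. Ighm, the constant region of the first heavy chain made (chromosome 12, 113418826 to 113422730), had a peak of each replicate between it and the J segments. That stretch is known to hold the heavy chain enhancer E-mu and the mu switch region, and neither was placed here, so which of them the peaks overlie was not tested. The peak of replicate 2 (113424262 to 113425348) lay wholly within that of replicate 1 (113424024 to 113425647), and they began 1532 bp and 1294 bp from Ighm. Folds were 2.20 and 2.22, above 52.8% and 42.8% of the peaks in their lists, with −log10 q values of 0.858 and 0.842. The widths of 1624 bp and 1087 bp exceeded 91.9% and 82.0% of the peaks, so these peaks were wide and of middling height. The next annotated gene segment was Ighj4, 2867 bp and 3166 bp from the peaks, leaving out the entry for the whole heavy chain locus. Ighj4 and Ighd, the delta constant region on the other side of Ighm, had no gene-end peak.

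Igkc, the constant region of the kappa light chain (chromosome 6, 70726435 to 70726754), had no peak within 25 kb. The nearest peak of replicate 1 lay 64929 bp away, over the farther end of Rpia, a gene of the pentose phosphate pathway, with a fold of 2.62. The nearest of replicate 2 lay 97750 bp away, 9713 bp from the noncoding gene Gm30331, with a fold of 1.52. In replicate 1, 69.6% of protein-coding genes had a nearer peak than Igkc, and 71.4% did in replicate 2. Ighm and Igkc were set side by side as single genes with no test of their difference.

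**Figure D3:**
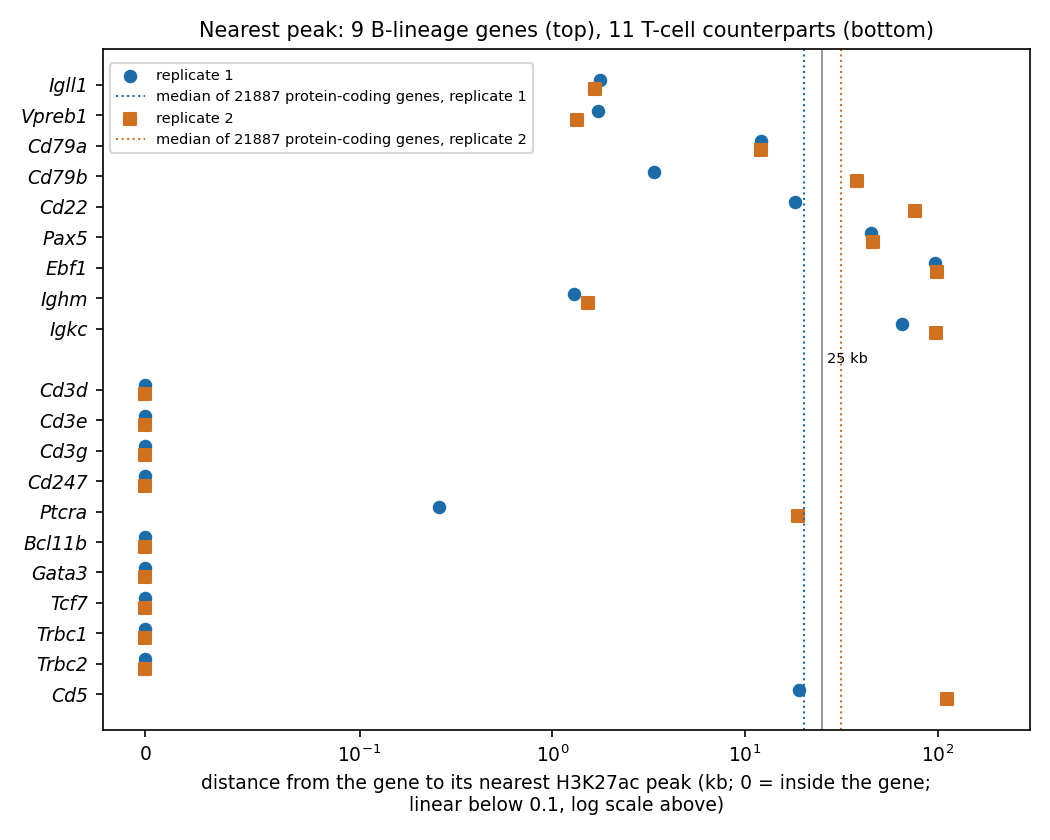
Distance in kb from each gene to its nearest H3K27ac peak in replicate 1 (circles) and replicate 2 (squares), linear below 0.1 and on a log scale above, with 0 for a peak inside the gene. None of the 9 B-lineage genes is at 0, whereas 9 of the 11 T-cell counterparts (the CD3 genes, Bcl11b, Gata3, Tcf7, Trbc1 and Trbc2) are at 0 in both replicates. Dotted lines give the medians of all protein-coding genes, 20291 bp and 31370 bp.

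In order of distance, Ighm, Vpreb1 and Igll1 came first, at 1294 to 1772 bp over both replicates, and these did not keep the same order in the 2 replicates. Cd79a had 12157 bp and 12047 bp. Cd79b (3363 bp and 38112 bp) and Cd22 (18173 bp and 75854 bp) had a near peak in replicate 1 and a far one in replicate 2. Pax5, Igkc and Ebf1 lay beyond 45 kb in both. The medians over the 9 genes were 12157 bp in replicate 1 and 38112 bp in replicate 2, and over all protein-coding genes 20291 bp and 31370 bp. On this measure the list lay on either side of the background.

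Of the 13 peaks beside the 9 genes, 2 had q of at most 0.05, the peak at Rps19 and the peak by Gm5768, both in replicate 2. That is 2 of 5 peaks of replicate 2, near the 41.0% of its whole list. In replicate 1, 0 of 8 passed, against 27.1% of its list. The 4 peaks with their nearest end at a member, those upstream of Igll1 and beside Ighm, had folds of 1.99 to 2.22 and −log10 q of 0.710 to 0.858. A setting that keeps only peaks with q of at most 0.05 therefore leaves none of the 4.

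**Figure D4:**
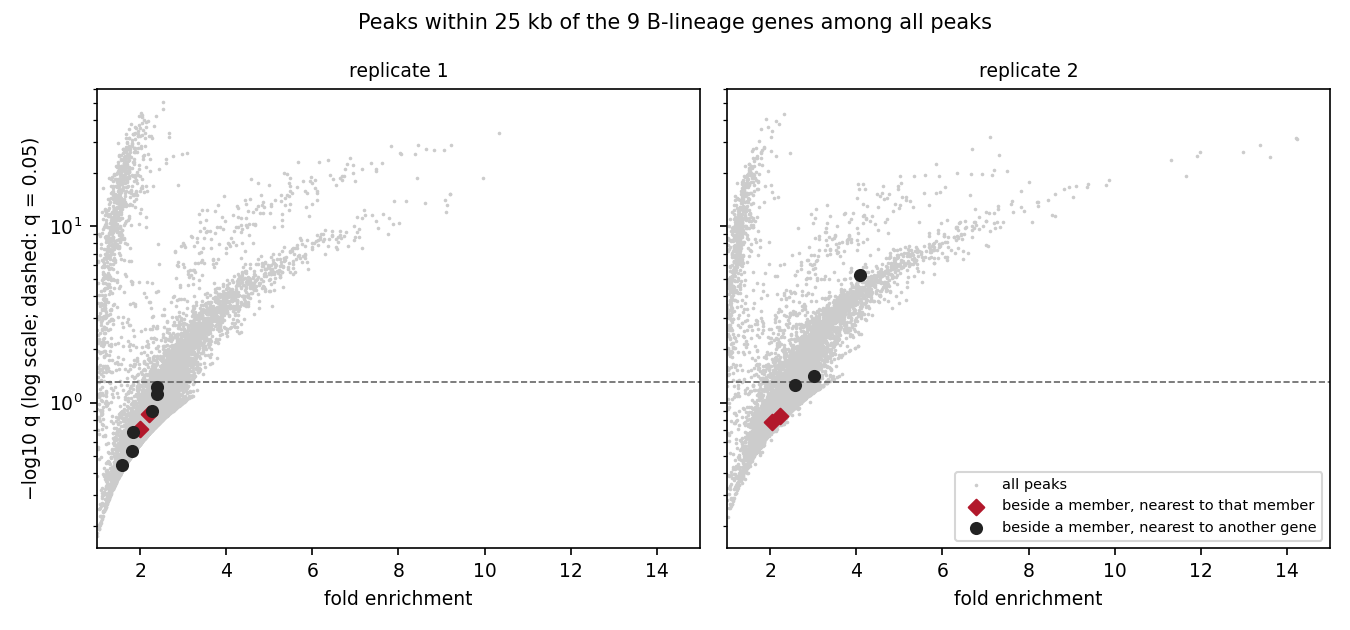
Fold enrichment (horizontal axis) against −log10 q (vertical log axis; dashed line at q of 0.05) for all peaks (grey) and the 13 peaks within 25 kb of the 9 genes, by replicate. Red diamonds are peaks whose nearest gene end belongs to Igll1 or Ighm, with folds of 1.99 to 2.22; black circles are nearest to another gene. Only 2 black circles in replicate 2 lie above the dashed line.

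Other genes of the B-cell programme were counted in the same way. Of 20 further B-lineage genes, 1 (5%) had a gene-end peak in both replicates, against the 16.8% of protein-coding genes. In replicate 1 it was 4 of 20 against 25.1%, and in replicate 2 it was 1 of 20 against 22.2%. So this list was not empty at its ends, and its difference from the 9 genes was not tested. The gene with one in both was Btk, the kinase downstream of the B-cell receptor, and the peak lay at its edge, 127 bp and 414 bp outside the gene. The peak overlapped an end of Timm8a1, a mitochondrial import gene, which may own it, and had folds of 2.10 and 2.06. At Blk, Plcg2 and Cd37 only replicate 1 had a gene-end peak. Blk, a kinase of the Src family, had a fold of 2.75 and a −log10 q of 2.74 there. Bank1, a B-cell adaptor, was the only gene of the 20 with a peak in its body in both replicates, against 19.9% of protein-coding genes, and the 2 peaks did not overlap. In either replicate 6 of the 20 had a body peak, against 38.9%. The other 16 genes, among them Ms4a1 (CD20), Vpreb2, Vpreb3, Cd72 and Pou2af1, had none at their ends in either replicate.

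Within 25 kb, 8 of the 20 (40.0%) had peaks of both replicates, against 38.1% of protein-coding genes. It was 12 of 20 in replicate 1 against 53.1%, 12 of 20 in replicate 2 against 46.5%, and 16 of 20 in either against 61.6%. The nearest gene end was another gene's in 21 of 31 cases (67.7%), against 59.4% over all protein-coding genes. Near Cr2, the complement receptor, the peaks of both replicates lay at Cr1l. Spib, a factor of the Ets family, had peaks of both replicates at Nr1h2, a peak of replicate 1 in its own body (fold 1.99) and one of replicate 2 by Pold1. Pik3ap1, an adaptor, had peaks of both at Tm9sf3 and one of replicate 2 in its own body (fold 2.80).

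Factors and enzymes that precursors of both lineages use were also counted. Of 18 such genes, 6 (33.3%) had a gene-end peak in both replicates, against 16.8% of protein-coding genes: Tcf3 (E2A), Tcf12 (HEB), Ikzf1 (Ikaros), Myb, Bach2 and Dntt (terminal transferase). At Tcf3, whose product acts together with EBF1 in B-cell precursors, the folds were 2.07 and 1.95. At Ikzf1 they were 2.39 and 2.36. Within 25 kb, 10 of the 18 (55.6%) had a peak in both replicates, against 38.1% of protein-coding genes. In either replicate it was 13 of 18, against 61.6%. The 5 without one were the factors Spi1, Irf4 and Mef2c, and Rag1 and Rag2, which encode the recombinase that joins receptor gene segments in both lineages. Foxo1, which also acts in early B cells, had a peak in its body in replicate 2 alone.

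The T-cell counterparts of the list were taken role by role, with results of these data known. Opposite Cd79a and Cd79b, each of Cd3d, Cd3e, Cd3g and Cd247 had a peak in its body in both replicates. Cd3d and Cd3g shared a peak of replicate 1, so they are not independent, and the body peaks of Cd3g did not overlap between replicates. The gene-end peaks of the CD3 genes on chromosome 9 had folds of only 1.05 to 1.23 with −log10 q of 2.65 to 6.78, and the replicates had only 471 to 503 bp in common within 25 kb. Opposite the surrogate light chain, Ptcra had no peak in its body. A peak of replicate 1 lay 258 bp from it, and the nearest of replicate 2 lay 18877 bp away. Opposite Pax5 and Ebf1, Bcl11b, Gata3 and Tcf7 each had a body peak in both replicates, with 2441, 1349 and 3904 bp covered by both within 25 kb, against 0 bp for Pax5 and Ebf1. Opposite Ighm and Igkc, the constant regions Trbc1 and Trbc2 had 7849 bp each in overlapping windows, against 1087 bp and 0 bp. The other T-cell receptor constant regions varied: Trgc1, Trgc2 and Trgc4 had 3722 to 4973 bp, Trdc had 284 bp, and Trac and Trgc3 had 0 bp. Opposite Cd22, the coreceptor gene Cd5 had no gene-end or body peak, as Cd22 had none, and its only peak within 25 kb was also in replicate 1. Of these 11 genes 6 (54.5%) had a gene-end peak in both replicates, against 16.8% of protein-coding genes, and 9 had a body peak in both, against 19.9%. For peaks within 25 kb of the 11 genes, the nearest gene end was another gene's in 35 of 57 cases (61.4%), against 59.4% over all protein-coding genes.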

How the data were processed

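H3K27ac ChIP-seq of 2 samples was used. Per the labels' protocols, fixed chromatin was enriched with an H3 antibody, given adapters and enriched again for H3K27ac. The submitters' processing notes name Bowtie2, mm10 and MACS 1.4.2, whereas the lists have the MACS2 broad layout. Per the peak names in the deposited files, each list comes from 1 library without duplicate reads. Neither the cutoff of the caller nor its control is given in the sources used here. The authors deposited for each peak a fold enrichment (a ratio) and its p and q on the −log10 scale, which were only described or filtered. The score deposited by the authors was not used.

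Gene positions came from RefSeq GRCm38.p6 (mm10). A gene counts as having a peak in both replicates whether or not the peaks overlap. A peak's possible owner is the gene with the nearest end, leaving out entries for whole immunoglobulin loci. Percentiles count peaks or protein-coding genes. With 1 group of 2 samples and no counts, no test was made. The 9 genes, the lists and the main genes named (the 9, owners of their peaks, list genes with a gene-end peak in both replicates, T-cell counterparts) were chosen with earlier results of these data known. Further genes of the lists, such as Blk, Bank1, Spib, Foxo1 and Rag1, fall outside this rule and were named after their values were seen. Values of 1 gene of the lists are not reported here. Alternatives were other q thresholds, windows, overlaps, owner rules and single replicates. Computations used Python 3.11.15, pandas 2.3.3 and numpy 2.4.6.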

Additional observations from a re-analysis of the deposited data

How the results depend on the processing

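The counts of gene-end and gene-body peaks stayed at 0 of 9 with q of at most 0.05 or 1e-05, a peak in either replicate, a single replicate, overlap of at least 1 bp or of 50% of the shorter peak, and, for gene ends, a window of 500 bp. With a gene-end window of 2.5 kb the count was 3 (Igll1, Vpreb1 and Ighm), against 18.9% of protein-coding genes, since the peaks lay 1294 to 1772 bp away. The count within 25 kb was 4, with 4 to 6 when a replicate was left out, 3 within 10 kb, 6 within 50 kb and 3 without peaks within 1 kb of another gene's end, a setting chosen after seeing the data. It fell to 0 with q of at most 0.05 and 0 with 1e-05. Of peaks nearer to a gene outside the list there were 9 of 13. There were 2 of 2 with q of at most 0.05, 3 of 5 without replicate 1, 6 of 8 without replicate 2 and 7 of 13 against protein-coding genes only. No paired analysis was possible because there is 1 group of H3K27ac samples. Acetylation below the caller's cutoff is not seen at all.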

Other observations

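The other immunoglobulin constant regions, which lie outside the 9 genes, were largely without peaks. Of the heavy chain constant regions Igha, Ighe, Ighg2c, Ighg2b, Ighg1, Ighg3 and Ighd, Ighd alone had a peak within 25 kb in both replicates. That was the peak beside Ighm, 7700 bp and 7938 bp from Ighd. Of protein-coding genes, 38.1% had a peak within 25 kb in both replicates and 61.6% in either. The heavy chain regions lie close together on chromosome 12, so they are not independent. The nearest peaks to Ighg3 lay 62792 bp and 63030 bp away, and those to Igha 59881 bp and 88369 bp. The lambda light chain constant regions Iglc1, Iglc2 and Iglc3, on chromosome 16 as are Igll1 and Vpreb1, had no peak within 25 kb, with the nearest at 87720 bp from Iglc1 in replicate 1. Igll1, which resembles a lambda constant region, thus had nearer peaks in both replicates (1772 bp and 1658 bp) than any of the 3. These genes were chosen after their values were seen.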
